A study of Mus musculus with 8 samples.

Results

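Genes that hold a fat cell to its neighbours and to its matrix, 10 in number, were followed across 3 treatments that make cultured adipocytes insulin resistant. They were chosen by symbol and by what their proteins do: Vcam1, Icam1 and Alcam of the immunoglobulin superfamily, the hyaluronan receptor Cd44, and the integrin subunits Itgav, Itga5, Itga6, Itga7, Itgb1 and Itgb5. All 10 of 10 were measured, among 18194 genes on the array, and together they were read by 35 of 45101 probe sets. Each gene was represented by its brightest probe set, meaning the one with the highest mean over the 8 arrays, and its other probe sets served as a check.

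The cells were 3T3-L1 adipocytes, fat cells obtained by differentiating an established mouse fibroblast line. One group received chronic insulin (CI, 2 arrays), one tumour necrosis factor (TNF, 3 arrays) and one dexamethasone, a synthetic glucocorticoid (Dex, 3 arrays). Every group also received MnTBAP, a cell-permeable antioxidant, during the last 6 hours, so no value here measures what the antioxidant does. The paper cites earlier work in which MnTBAP restored the insulin response in each model. These cells may therefore not have been insulin resistant when sampled, and the arrays do not measure that. No untreated cells were analysed here, and a higher level in one model is equally a lower level in the other. Whether replicate arrays stem from separate cultures is not in the labels, and the p-values therefore rest on a spread between samples that may be purely technical. TNF and Dex were both set against the same 2 CI arrays.

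Integrins are receptors made of 1 alpha and 1 beta subunit that bind matrix proteins outside the cell and link to the actin cytoskeleton inside it. The alpha subunit largely sets the ligand: Itga5 pairs with Itgb1 to bind fibronectin, Itga6 and Itga7 pair with Itgb1 to bind laminins, and Itgav pairs with Itgb1, Itgb5 and other beta subunits to bind vitronectin and fibronectin. Vcam1 and Icam1 are cell-surface ligands for integrins of leukocytes and are classical targets of inflammatory signalling through NF-kB in endothelial cells. Glucocorticoids are widely known to dampen such signalling. In differentiating preadipocytes the cell is known to move from a fibronectin-rich to a laminin-rich surrounding.

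Promoter windows of RefSeq (GRCm38.p6), from 250 bases before to 50 after a gene's start, were matched for 7 of the 10 genes. For Itgav the window, chr2:83724147-83724446, lay inside the gene, whose RefSeq record begins at 83722303. Its matches therefore do not describe the first base of that record. Vcam1, Itga6 and Itga7 were not matched. The 160 bases before the start are shown for 4 genes with unlike patterns over the 3 groups, described further on. Icam1 stayed dim in every group with no difference that passed, and Cd44 was highest in TNF and lowest in Dex. Alcam was highest in CI, and Itga5 was highest in Dex. Itgav, Itgb1 and Itgb5 were matched too but are not shown, so the pattern of a gene higher in TNF alone is not covered. Sequences run 5′ to 3′ on the gene's own strand, and capitals mark matches to the searched motifs.

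Icam1, chr9:21015780-21015939, plus strand: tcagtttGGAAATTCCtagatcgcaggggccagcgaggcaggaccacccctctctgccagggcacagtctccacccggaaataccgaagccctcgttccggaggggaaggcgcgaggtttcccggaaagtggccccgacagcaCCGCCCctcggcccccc
Cd44, chr2:102901666-102901825, minus strand: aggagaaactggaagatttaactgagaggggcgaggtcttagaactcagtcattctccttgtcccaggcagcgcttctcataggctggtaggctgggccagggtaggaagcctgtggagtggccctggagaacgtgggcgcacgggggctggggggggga
Alcam, chr16:52453082-52453241, minus strand: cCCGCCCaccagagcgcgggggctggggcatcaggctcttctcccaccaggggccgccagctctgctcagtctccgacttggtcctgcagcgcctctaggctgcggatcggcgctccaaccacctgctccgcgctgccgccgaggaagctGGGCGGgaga
Itga5, chr15:103366792-103366951, minus strand: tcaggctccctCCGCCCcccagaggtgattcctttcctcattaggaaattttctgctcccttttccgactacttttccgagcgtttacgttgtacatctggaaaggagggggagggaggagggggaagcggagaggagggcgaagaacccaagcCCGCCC

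The motifs were searched on both strands of the whole window of 300 bases. The shortened kB palindrome, GGAANTTCC, stood in the Icam1 window from 153 to 145 bases before the start and in no other of the 7 windows, while 0.93% of 32841 RefSeq windows hold it. The longer kB consensus, held by 8.46% of windows, the AP-1 site TGANTCA, held by 7.81%, and the glucocorticoid response element, held by 0.01%, were matched in none of the 7. The Sp1 core GGGCGG was matched in all 7, against 35.67% of all windows, and TATAAA in Icam1 only, against 13.62%. This TATAAA lay after the start, by 13 to 18 bases. The capitals in Icam1, Alcam and Itga5 that read GGGCGG or its reverse complement are Sp1 cores. The Cd44 stretch has no capitals because its Sp1 core lay after the start, as that of Itgav did. A match describes letters in a window and not a bound site.

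All values are log2 of the deposited probe-set intensity, and differences are given on that log2 scale with the standard error. Array medians ran from 124.7 to 130.97 in linear intensity, with a Pearson's r of 0.9958 to 0.9978 for pairs of arrays within a group and of 0.9856 to 0.991 for pairs from different groups. The labels call the cells adipose in one field and preadipocytes in another. Adipocyte markers were present: all 8 measured of 9 adipocyte markers exceeded the 95th percentile of 39 olfactory receptor genes, taken as a reference for dim probe sets, in every group. That percentile was 7.49 in CI, 7.60 in TNF and 7.57 in Dex, and the reference median was 6.27, 6.41 and 6.29. Probe sets differ in affinity, so the reference is only a guide to dim signal. Of the 10 genes, Icam1 was the one whose mean exceeded the 95th percentile in no group.

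A gene was called when its limma adjusted p was under 0.05 and its log2 difference was over 0.5 in size. In TNF against CI, Vcam1, Cd44 and Itgav were higher and Alcam and Itga6 were lower, which is 3 higher and 2 lower of 10, beside 3.00% and 5.23% of all genes. In Dex against CI, Itga5 was higher and Cd44, Alcam and Itga6 were lower, which is 1 higher and 3 lower, beside 3.33% and 5.67%. In TNF against Dex, 4 were called, Vcam1, Cd44, Itgav and Alcam, all of them higher in TNF, beside 4.14% of all genes called higher and 3.16% called lower. The median difference of the 10 was 0.21, −0.23 and 0.22 in the 3 comparisons, beside 0.03, 0.02 and 0.01 over all genes. Icam1, Itga7, Itgb1 and Itgb5 were called in no comparison.

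**Figure D1:**
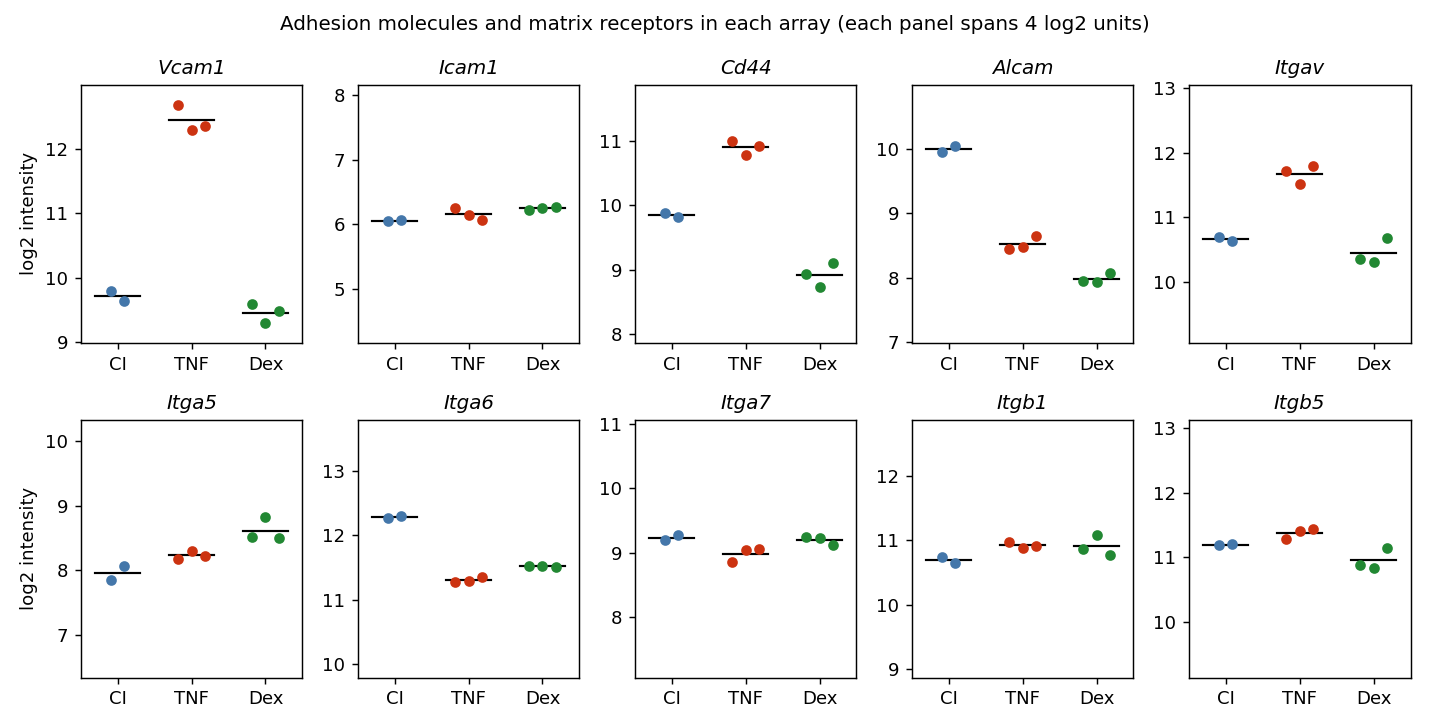
Log2 probe-set intensity of each of the 10 genes (vertical axis, each panel spanning 4 log2 units) in the CI, TNF and Dex groups, with 1 point per array and a line at each group's mean. The 3 TNF arrays of Vcam1 sit at 12.30 to 12.68, above all 5 other arrays, while the points of Icam1 lie together near 6.

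Vcam1, the endothelial and stromal ligand of the leukocyte integrin alpha-4 beta-1, showed the widest spread between groups of the 10. The level was 9.79 and 9.65 on the CI arrays, 12.68, 12.30 and 12.35 on the TNF arrays, and 9.59, 9.30 and 9.48 on the Dex arrays. The TNF arrays stood well apart, and every Dex array lay below both CI arrays, by a small margin. The TNF level was 6.60-fold that of CI, a difference of 2.72 ± 0.12 (limma adjusted p = 2.39e-07), and 7.92-fold that of Dex (adjusted p = 1.01e-08). Dex and CI differed by −0.26 ± 0.12, with a 95% interval from −0.53 to 0.003, and this did not pass (limma adjusted p = 0.157).

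Icam1, the ligand of the leukocyte beta-2 integrins and often measured beside Vcam1, was dim on every array. It read 6.05 and 6.06 in CI, against 6.25, 6.14 and 6.07 in TNF, with 6.23, 6.26 and 6.27 in Dex. Its group means of 6.05, 6.15 and 6.25 lay below the median of the olfactory receptor genes in each group, and the TNF and Dex arrays overlapped. The 95% interval of the difference ran from −0.07 to 0.26 for TNF against CI (limma adjusted p = 0.374) and from 0.03 to 0.36 for Dex against CI (adjusted p = 0.0853). Neither difference passed, on a single probe set whose signal never rose above the dim reference.

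Alcam, which binds CD6 on T cells and also itself on neighbouring cells, was highest in chronic insulin and lowest in dexamethasone. The CI arrays read 9.94 and 10.05, the TNF arrays 8.44, 8.47 and 8.64, and the Dex arrays 7.94, 7.93 and 8.07. The 3 groups did not overlap. Against CI, Alcam fell by 1.48 ± 0.09 in TNF (limma adjusted p = 1.3e-06) and by 2.01 ± 0.09 in Dex (adjusted p = 7.82e-08), a 4.04-fold lower level in Dex. The difference between TNF and Dex was 0.54 ± 0.08 (limma adjusted p = 0.000452), just over the limit on size, and without TNF replicate 3 it was 0.47 and was no longer called.

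Cd44, the main surface receptor for hyaluronan, was the one gene of the 10 called in opposite directions by TNF and Dex relative to CI. It read 9.88 and 9.82 in CI, followed by 10.997, 10.785 and 10.913 in TNF, with 8.93, 8.74 and 9.10 in Dex. The 3 groups were separate, with CI between the others. TNF exceeded CI by 1.05 ± 0.11 (limma adjusted p = 5.91e-05) and Dex was lower than CI by a 1.90-fold factor (−0.93 ± 0.11, adjusted p = 8.35e-05). The distance between TNF and Dex was 1.97 ± 0.10, a 3.93-fold difference (limma adjusted p = 9.37e-08).

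**Figure D2:**
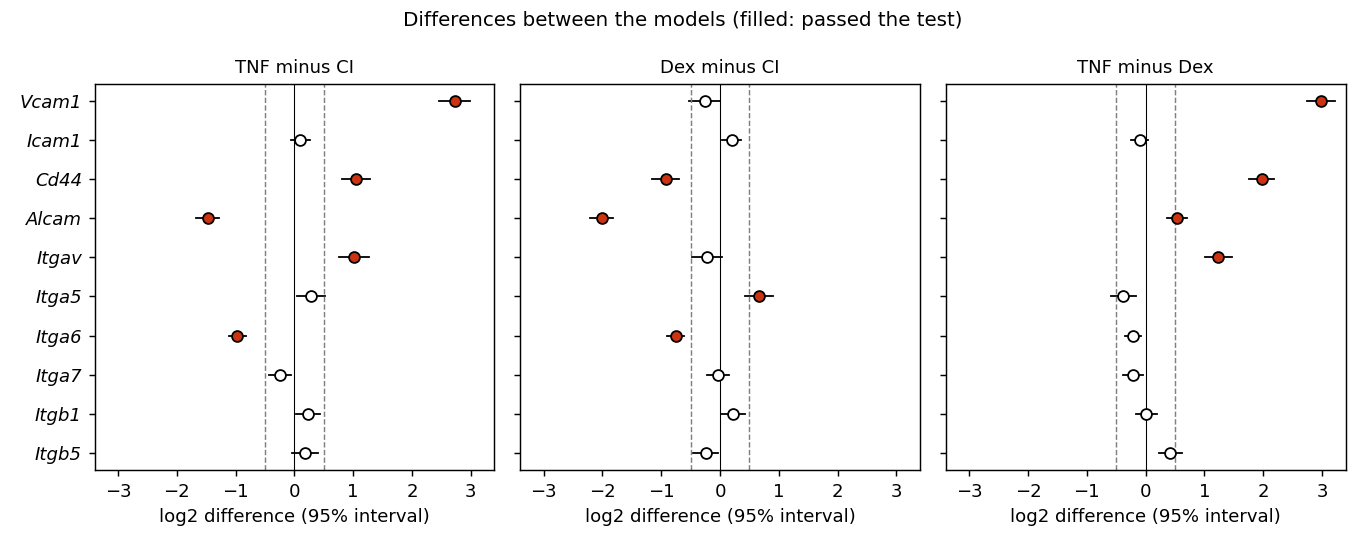
Log2 difference (horizontal axis) with its 95% interval (bar) for each of the 10 genes (rows), 1 panel per comparison, with filled points for calls and dashed lines at the limit of 0.5. Vcam1 reaches 2.72 in TNF minus CI, and Alcam reaches −2.01 in Dex minus CI.

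Among the integrin alpha subunits, Itgav, the partner of several beta subunits in receptors for vitronectin and other RGD-bearing proteins, was higher in TNF than in both other models. Its arrays read 10.70 and 10.63 in CI, compared with 11.71, 11.52 and 11.80 in TNF, with 10.35, 10.31 and 10.67 in Dex. The TNF arrays were separate, while 1 Dex array lay between the 2 CI arrays. TNF exceeded CI by 1.01 ± 0.12 (limma adjusted p = 0.000145) and Dex by 1.23 ± 0.10, or 2.35-fold (adjusted p = 8.87e-06). Dex against CI gave −0.22, with a 95% interval from −0.48 to 0.03 (limma adjusted p = 0.217).

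Itga5, the alpha subunit of the classical fibronectin receptor, was the one gene of the 10 called higher in Dex than in CI. It read 7.84 and 8.06 in CI, against 8.17, 8.30 and 8.23 in TNF, with 8.52, 8.83 and 8.51 in Dex. The groups stood in that order without overlap. Dex exceeded CI by 0.66 ± 0.11, a 1.58-fold difference (limma adjusted p = 0.00106). TNF lay below Dex by 0.38 in log2 (−0.38 ± 0.10, adjusted p = 0.0155), which did not reach the limit on size, and TNF against CI gave 0.28 ± 0.11 (limma adjusted p = 0.0878).

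Itga6, the alpha subunit of laminin receptors, was highest in CI and had the closest replicates of the 10 in Dex, with an SD of 0.008. The arrays read 12.26 and 12.30 in CI, followed by 11.28, 11.30 and 11.35 in TNF, with 11.53, 11.53 and 11.51 in Dex. All TNF and Dex arrays lay below CI by several times the spread between arrays. Itga6 was 1.96-fold lower in TNF (−0.97 ± 0.07, limma adjusted p = 4.76e-06) and 1.69-fold lower in Dex (−0.76 ± 0.07, adjusted p = 1.38e-05). TNF and Dex differed by −0.21 ± 0.06 (limma adjusted p = 0.0273), under the limit on size.

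Itga7, the other laminin-binding alpha subunit and best known from muscle, was not called. It read 9.19 and 9.28 in CI, compared with 8.85, 9.04 and 9.06 in TNF, with 9.24, 9.23 and 9.12 in Dex. The CI and Dex arrays overlapped, and the TNF arrays lay below both. The difference of TNF from CI was −0.25, with a 95% interval from −0.44 to −0.06 (limma adjusted p = 0.0595). Itga7 and Itga6, which share laminin as a ligand, had differences from CI of −0.04 and −0.76 in Dex. The difference between these 2 genes was not tested.

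Neither beta subunit was called. Itgb1, the common partner of Itga5, Itga6 and Itga7, read 10.73 and 10.65 in CI, against 10.98, 10.88 and 10.92 in TNF, with 10.86, 11.09 and 10.78 in Dex. The TNF and Dex arrays overlapped and all 6 lay above CI. The differences from CI were 0.23 ± 0.09 in TNF (limma adjusted p = 0.1) and 0.22 ± 0.09 in Dex (adjusted p = 0.131), with 95% intervals that end at 0.44 and 0.42. TNF minus Dex was 0.02, with a 95% interval from −0.17 to 0.20.

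Itgb5, a partner of Itgav in a vitronectin receptor, read 11.19 and 11.20 in CI, followed by 11.28, 11.40 and 11.44 in TNF, with 10.89, 10.83 and 11.14 in Dex. The groups were separate, with TNF highest and Dex lowest, in the same order as Cd44. TNF exceeded Dex by 0.42 ± 0.09 (limma adjusted p = 0.00492), short of the limit on size. The differences from CI were 0.18 in TNF (limma adjusted p = 0.212) and −0.24 in Dex (adjusted p = 0.105).

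Within a group the standard deviation of a gene ran from 0.008 to 0.205. The highest group mean was in CI for 3 of the 10, in TNF for 5 and in Dex for 2. Dex replicate 3 had the highest reading of the Dex arrays for Icam1, Cd44, Alcam, Itgav and Itgb5 and the lowest for Itga5, Itga6, Itga7 and Itgb1. It was also the Dex array with the largest 3′ minus 5′ signal of beta-actin, a measure of RNA integrity, at 0.75 against 0.49 and 0.49 on the other Dex arrays. The TNF arrays read 0.71 to 0.83 on this measure and the CI arrays 0.54 and 0.66. With this measure as a covariate, a fit added after the data were seen, the called genes numbered 5, 4 and 3. The one call lost was Alcam in TNF against Dex (0.44, limma adjusted p = 0.018). Some differences shrank, as Itgav in TNF against CI (0.80) and against Dex (0.99) and Itgb5 in TNF against Dex (0.26, limma adjusted p = 0.131). Others grew, as Itga5 in TNF against CI (0.40). The covariate partly follows the treatment, so its effect cannot be told apart from that of TNF.

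The 25 other probe sets of these genes gave 9, 6 and 11 calls in the 3 comparisons, when each of 45037 probe sets was tested on its own. The shares of all probe sets called either way were 6.64%, 7.34% and 5.74%. Of the 9 calls in TNF against CI, 5 were higher and 4 lower, all 6 in Dex against CI were lower, and all 11 in TNF against Dex were higher in TNF. Icam1 and Itga7 had 1 probe set each.

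The other Vcam1 probe sets gave smaller differences of TNF from CI, at 1.62 and 1.37, than the brightest one at 2.72, and all 3 were called. One of them was also called lower in Dex than in CI (−0.85, limma adjusted p = 0.00719), where the brightest was not. The next 2 Cd44 probe sets were called higher in TNF than in CI, at 1.12 and 0.77, and a dim one, with a mean of 4.12, was at 0.05. In Dex against CI the first of these was also called lower (−0.78). The next was at −0.43 (limma adjusted p = 0.0245), under the limit on size, and the dim one was at −0.03. For Alcam, 4 of 5 probe sets were called in each of the 3 comparisons, and the remaining one, with a mean of 5.76, in none. The second Itga6 probe set was lower than CI by larger amounts, −1.45 in TNF and −1.09 in Dex.

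The calls of Itgav, Itga5 and Itgb5 depended on the probe set, as did those of Vcam1 and Cd44 in Dex against CI. For Itgav a second probe set was called higher in TNF than in CI (0.73), and the other 3, with means of 6.83, 5.45 and 3.61, were not, so the median over its probe sets gave 0.06 in TNF against CI and −0.13 in TNF against Dex. For Itga5 the second probe set differed by 0.48 between Dex and CI (limma adjusted p = 0.00528), just under the limit on size. For Itgb5 the brightest probe set was not called in TNF against Dex, while the 3 others were, at 0.65, 0.59 and 0.67. None of the 6 Itgb1 probe sets was called.

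**Figure D3:**
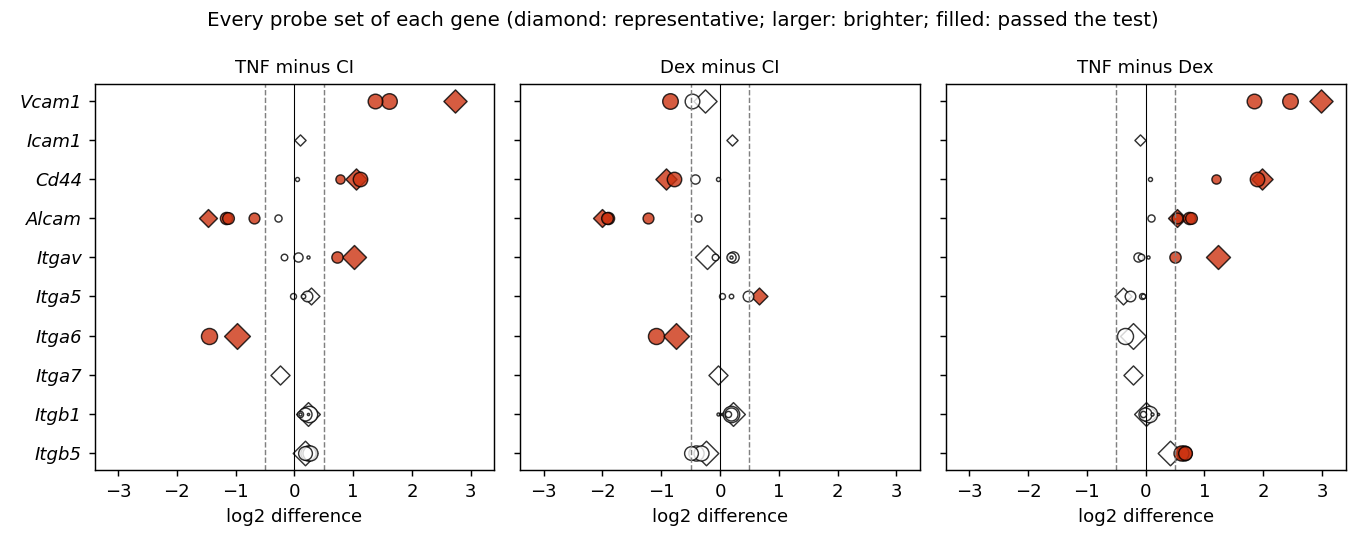
Log2 difference (horizontal axis) of every probe set of each of the 10 genes (rows) in the 3 comparisons, with a diamond for the brightest probe set of a gene, larger symbols for higher mean intensity, filled symbols for calls and dashed lines at the limit of 0.5. The 3 Vcam1 probe sets lie at 1.37, 1.62 and 2.72 in TNF minus CI, and the dim one of Cd44 lies at 0.05.

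Genes that work with these receptors were counted by list. Of 18 other integrin subunits measured, limma called 0 in TNF against CI and 0 in Dex against CI, with 4 at an unadjusted p under 0.05 in each. In TNF against Dex it called 1, the leukocyte beta subunit Itgb2 (0.92), which was not above the dim reference in Dex. The call of Itgb2 also appeared in TNF against CI without CI replicate 2 or without TNF replicate 1 (0.50 each), and that of Itga1 in Dex against CI without Dex replicate 1 (−0.60). The medians of this list were 0.03, 0.00 and 0.05, and 14 of the 18 were above the dim reference in no group.

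Of 18 other adhesion molecules of the immunoglobulin superfamily, Jam3 was higher (0.56) and Mcam lower (−0.68) in TNF than in CI, and Jam3 was above the dim reference in TNF only. In Dex, Cd47, the receptor of thrombospondin-1 and ligand of SIRP-alpha, was lower (−0.91), as was the junctional protein F11r (−0.73). Mcam was also lower in TNF than in Dex (−0.80). Of 8 selectins, selectin ligands and cadherins, the mesenchymal cadherin Cdh11 was higher in TNF than in CI (0.64) and than in Dex (1.05). Without CI replicate 1 Selp (0.52) was also called in TNF against CI. Cdh13, a receptor for adiponectin, was higher in Dex than in CI (1.36) and lower in TNF than in Dex (−1.50).

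Of 12 other matrix receptors, the collagen receptors Ddr2 (0.89) and Ddr1 (0.74) were higher in TNF than in CI. The heparan sulphate proteoglycan Sdc2 was lower in Dex than in CI (−0.96). This was the only call of the list there, and the count rose to 3 without Dex replicate 2, where Sdc4 (0.53) and Ddr1 (0.59) were added, and Ddr1 (0.53) was also added without Dex replicate 1. In TNF against Dex 3 were higher, the collagen-uptake receptor Mrc2 (0.81), Sdc2 (0.80) and Ddr2 (0.67).

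Among 17 matrix ligands measured of 18, the fibronectin gene Fn1, whose product binds both the Itgav and the Itga5 receptors, was higher in TNF than in CI (1.30) and than in Dex (1.64). Mfge8, a secreted ligand of the Itgav receptors, was higher in TNF by 0.87 and 0.91 in the same comparisons. Tnc (1.09) was higher in TNF than in CI, and Lamb2 (0.63) too, the latter named after its value was seen. Has2, which makes the Cd44 ligand hyaluronan, was lower than in CI in TNF (−0.81) and in Dex (−2.02). In Dex against CI the list had 1 higher, Lamb2 (0.58), and 4 lower, with Thbs1 (−1.13), Lama4 (−0.70) and Tnc (−0.61) beside Has2. In TNF against Dex 5 were higher, with Tnc (1.70), Fn1 (1.64), Has2 (1.21) and Thbs1 (0.92) leading. The medians of the list were 0.06, −0.10 and 0.14. Tnc was above the dim reference in no group, and Has2 and Lamb2 not in all. Without CI replicate 1 the calls of Lamb2 (0.43) and Has2 (−0.67) in TNF against CI and of Lamb2 (0.38) and Thbs1 in Dex against CI were lost, and Thbs1 in Dex against CI was also lost without CI replicate 2 or Dex replicate 3. The call of Thbs1 in TNF against Dex was lost without TNF replicate 3, Dex replicate 1 or Dex replicate 3.

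Of 18 integrin activators and focal adhesion proteins measured, the actin cross-linker Actn1 was higher in TNF than in CI (0.69), joined by Src (0.56) without CI replicate 2. In Dex, Tns1 (1.16) and Ilk (0.62) were higher than in CI and Tln2 was lower (−0.69). TNF exceeded Dex in Actn1 (0.78) and Tln2 (0.62) and was lower in Tns1 (−0.97). Of 7 genes for proteases that release adhesion molecules from the surface and their inhibitor Timp3, 3 were higher in TNF than in CI: Mmp9 (1.13), Mmp14 (0.88), which cleaves Cd44, and Adam10 (0.53). Timp3 was lower in Dex than in CI (−0.93). In TNF against Dex, Timp3 (1.38), Mmp9 (1.25) and Mmp14 (0.55) were higher. Mmp9 was not above the dim reference in all groups, and Adam10 was no longer called without CI replicate 1 (0.50) or TNF replicate 3 (0.45).

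**Figure D4:**
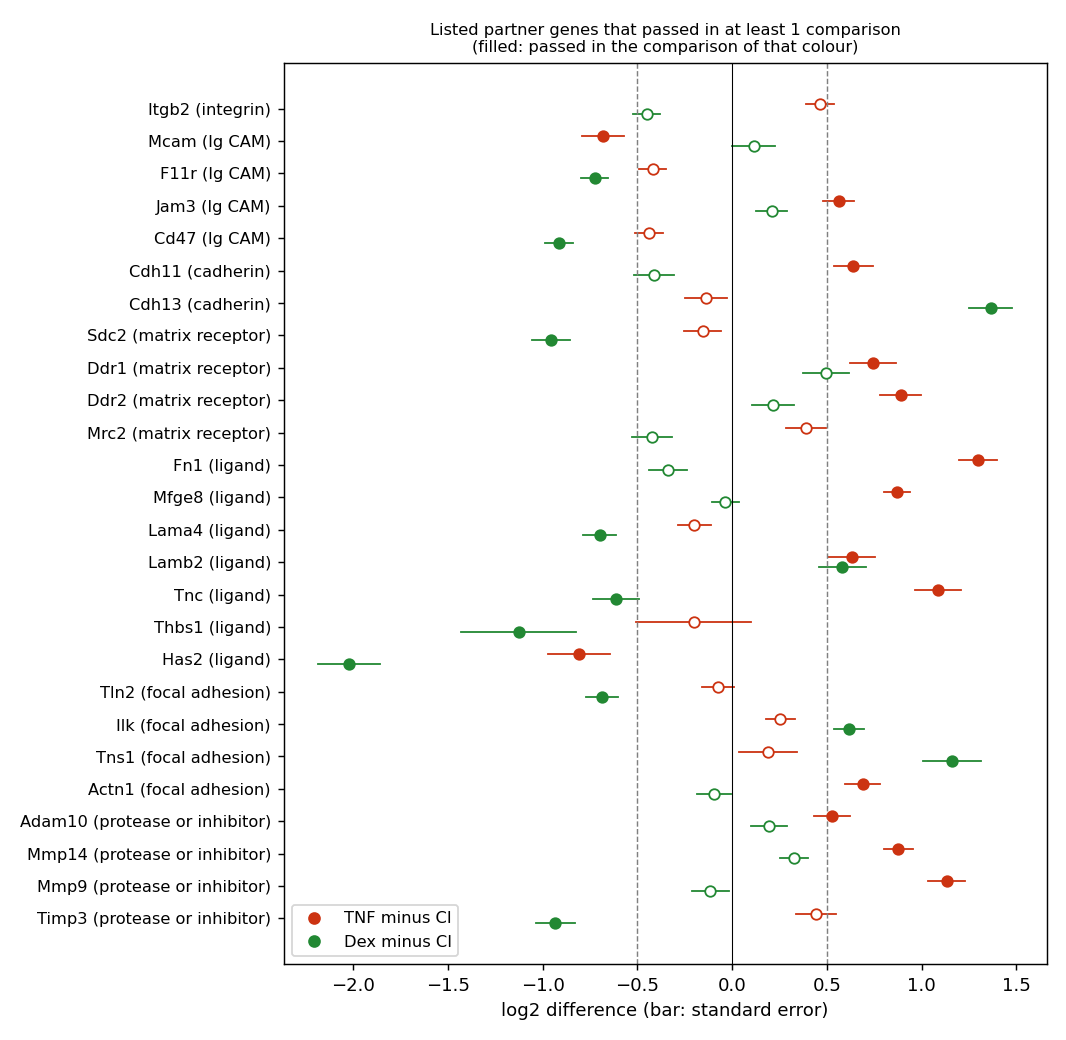
Log2 difference (horizontal axis) with its standard error (bar) of the 26 listed partner genes (rows) called in TNF minus CI or Dex minus CI or, for Itgb2 and Mrc2, in TNF minus Dex alone, with filled points where called. Fn1 lies at 1.30 in TNF minus CI, and Has2 at −2.02 in Dex minus CI.

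Markers of other cell types moved with some of these results. In bulk samples fewer cells of a type and less RNA per cell cannot be told apart. Of the 8 adipocyte markers, 5 were lower in TNF than in CI, led by Retn (−0.95), Cidec (−0.86), Cebpa (−0.635) and Slc2a4 (−0.625). The other 3 were not called, Adipoq at −0.05 (limma adjusted p = 0.621), Fabp4 at 0.02 (adjusted p = 0.873) and Lipe at −0.46 (adjusted p = 0.00292). Group means of Adipoq and Fabp4 ran from 14.313 to 14.435, near the top of the arrays' scale. The highest linear intensity of an array was 22432.5 to 24273.6. Differences of these 2 genes may therefore be compressed, and both enter the sums given below. In Dex against CI 2 adipocyte markers were lower, Slc2a4 (−0.65) and Pparg (−0.61). In TNF against Dex 2 were lower in TNF, Retn (−1.08) and Cidec (−0.91). The 8 adipocyte markers summed to intensities of 99345.4 to 99520 in CI, 75567.7 to 78076.6 in TNF and 93281 to 98503.7 in Dex. The preadipocyte and fibroblast list, 9 of 10 measured, had 2 higher in TNF against CI, Acta2 (1.06) and Pdgfrb (0.93), and 1 lower, Postn (−0.50). In Dex against CI 4 were lower, Col1a1 (−1.14), Dlk1 (−0.70), Col1a2 (−0.66) and Postn (−0.65). In TNF against Dex 6 were higher, with Acta2 (1.39), Pdgfrb (1.34), Col1a1 (0.99) and Dlk1 (0.83) leading. Without CI replicate 1 the calls of Postn (−0.41) and of the adipocyte regulator Pparg (−0.49) in TNF against CI were lost, as they were without TNF replicate 2. Postn was also lost without TNF replicate 1 and Pparg without TNF replicate 3. The call of Pdgfra in TNF against Dex was lost without TNF replicate 1 (0.48), and without 6 other arrays in turn. Pparg, Pdgfra, Adipoq, Fabp4 and Lipe were named after their values were seen. The summed intensity of the preadipocyte and fibroblast list was 40099.4 to 42463.5 in CI, 42185.2 to 49242.7 in TNF and 24604 to 27352.3 in Dex. Such sums weigh bright genes most, and the 4 called lower in Dex than in CI were the brightest of this list in CI. The other 5 were not called there, at −0.42 (Thy1) to −0.02 (Pdgfra). The sums of this list were lowest in Dex, where Cd44 was also lowest, and their part in the Cd44, Itgav and Vcam1 differences was not tested.

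Leukocyte markers, 11 of 12 measured, summed to 3187.6 to 3199.5 in CI, 4411.3 to 4678.2 in TNF and 3127.2 to 3155.9 in Dex. Cd14 (1.44) and Lyz2 (0.55) were higher in TNF than in CI, and Cd14 (0.98) in Dex than in CI. Ptprc, which defines leukocytes, read 4.60, 4.66 and 4.63, and 5 of the 11, among them Ptprc, Adgre1, Itgam and Cd68, were above the dim reference in no group. Of 7 endothelial markers limma called 0 in each comparison, with 4, 0 and 2 at an unadjusted p under 0.05. Their sums ran from 545.5 to 579.3 in CI, 621.2 to 651.5 in TNF and 573.5 to 613.9 in Dex, and 6 of the 7 were above the dim reference in no group. Of 7 skeletal muscle markers, Acta1 alone was called, lower in TNF (−0.93) and in Dex (−1.01) than in CI, and above the dim reference in CI only. Their sums ran from 1281.3 to 1310.4 in CI, 1129.4 to 1216.3 in TNF and 1128.5 to 1148.7 in Dex, and 4 of the 7, Myod1, Myog and Myf5 among them, were above the dim reference in no group. Of 7 genes listed as markers of the treatments, Saa3 (5.19), Lcn2 (2.17) and the chemokine gene Ccl2 (1.52) were higher in TNF than in CI. The glucocorticoid-induced genes Fkbp5 (2.96), Tsc22d3 (2.13) and Per1 (0.81) were higher in Dex than in CI, and Ccl2 was lower (−1.12). Nfkbia, a target of NF-kB, was at 0.19 in TNF against CI (limma adjusted p = 0.382) and was called higher in Dex than in CI (0.58). Without CI replicate 1 the Dex calls of Nfkbia (0.47) and Per1 (0.67) were lost. The list held no marker of the CI treatment.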

How the data were processed

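The 8 RNA samples were hybridised to Affymetrix mouse expression arrays. The deposited values are linear probe-set intensities made by the authors, whose methods name RMA in affyPLM. Whether they are RMA values with the logarithm removed is not given in those methods. Log2 was taken with no pseudocount. Gene symbols came from the platform annotation in GEO: 34958 had 1 symbol, 932 several and 9211 none, and only those with 1 symbol named a gene. The 64 control probe sets were left out where each probe set was tested. The gene IDs of all 10 genes matched RefSeq.

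One limma fit (version 3.58.1, R 4.3.3) held the 3 groups, with eBayes, two-sided tests and Benjamini-Hochberg adjustment over 18194 genes. Called means an adjusted p under 0.05 and a log2 difference over 0.5, as in the study's methods. The genes and lists were chosen with earlier results of these data known. Named were all 10 genes and, per list and comparison, up to 4 called genes with the largest difference. Leukocyte and muscle markers were named in part, and all 7 treatment-response markers. Endothelial markers, planned to be named, were only counted. Some genes whose call changed with an array left out were named too. For each called gene of the 10, the 3 genes with the highest r were also named. The fit was tested on simulated data of 18194 genes. There it recovered 87% of 100 genes changed by 0.75 for TNF minus CI and 94% for TNF minus Dex, with 4 and 1 false calls. The simulated noise was independent between genes, and far fewer genes were changed than were called in the data. No change was simulated between Dex and CI. These rates may therefore not carry over to the arrays. Arrays have no read depth, and their number limits the precision. The alternatives were other scalings and filters, other rules for the probe set, other fits and thresholds, the replicate number as a block, and leaving out each array.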

Additional observations from a re-analysis of the deposited data

How the results depend on the processing

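Each of the 30 differences of the 10 genes was recomputed under 22 alternatives, which gave 660 values. Of these, 638 kept their direction and their side of the threshold, 9 lost the call, 3 gained it and 10 changed sign. Of the 30 differences, 18 kept direction and side under every alternative run. These counts include alternatives that could not change a difference or its sign. Such alternatives changed only the test, the threshold or the genes tested, or left out an array of the group not compared. Taking the probe set with the highest linear mean also gave the same differences. One called difference changed sign, that of Itgav in TNF against Dex, at −0.13 (limma adjusted p = 0.316) with the median over a gene's probe sets in place of the brightest. The other sign changes were in differences that were called under neither setting. They were Itgav in Dex against CI with that median (0.19), Itga7 in Dex against CI with quantile normalization (0.012), and Itgb1 in TNF against Dex with arrays centred on their median (−0.012) and with the median over probe sets (−0.027). Leaving out 1 array gave −0.078 to 0.007 for Itga7 and −0.05 to 0.10 for Itgb1 in these comparisons. With the median over probe sets the calls of Itgav in TNF against CI (0.06) and Itga5 in Dex against CI (0.26) were also lost, and those of Vcam1 in Dex against CI (−0.64) and Itgb5 in TNF against Dex (0.62) were gained. By construction this median counts dim probe sets like bright ones. With a limit of 1 on the size of the difference, 1 gene was called in Dex against CI, Alcam, in place of 4. Leaving out 1 array gave 5 called genes in TNF against CI, 4 in Dex against CI and 3 to 5 in TNF against Dex. Itgb5 was gained in the last without Dex replicate 3 (0.52). The deviations of same-numbered arrays from their group means had r from −0.095 to 0.334, and those of differently numbered arrays from −0.384 to 0.284. These ranges overlap and cannot tell whether the numbers pair the samples, so pairing was not assumed. With the replicate number as a block, 5, 4 and 4 genes were called, as without it. CI had 2 arrays, which limits every comparison against it.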

Other observations

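Genes outside the list that followed its called members most closely over the 8 arrays are given as a description, since with 3 groups any genes high in the same group correlate. Nearest to Vcam1 were Lasp1, an actin-binding protein of focal adhesions (Pearson r = 0.9973), the secreted chaperone Clu (0.9958) and Mfge8 (0.9938). Nearest to Cd44 were the lysozyme gene Lyz1 (0.9977), Rarres2, which encodes the adipokine chemerin (0.9976), and Plat, tissue plasminogen activator (0.9973). Nearest to Alcam were Ppp1r3d (0.9975), Klhl5 (0.9973) and the COPII coat gene Sec23a (0.9944). Itgav was nearest to 4933412E12Rik (0.9943), Slc15a3 (0.9939) and the tubulin gene Tubb6 (0.9931). Itga5 was nearest to Def8 (0.9897), Klhl4 (0.982) and Tinagl1 (0.9748). Itga6 was nearest to Brf2 (0.9962), Syvn1 (0.9928) and Acbd4 (0.9923).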
